A study of Mus musculus with 10 samples.

Results

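The genes described here encode the glycosyltransferases that start, lengthen, branch and cap the sugar chains of glycoproteins and glycolipids. They were taken from the deposited count table by gene name: Abo, and every name that starts with Galnt, B3gnt, B3galt, B4galt, B4galnt, Gcnt, Fut, St3gal, St6gal or St8sia followed by a digit, antisense and pseudogene names left out. This gave 70 of the 49164 genes that have a count in the table. They divide into 17 Galnt, 5 Gcnt, 8 B3gnt, 6 B3galt, 7 B4galt, 4 B4galnt, 8 Fut, 6 St3gal, 2 St6gal and 6 St8sia genes and Abo.

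RNA with a poly(A) tail was sequenced from epithelium peeled off mouse gingiva, the gum around the teeth, after treatment with the protease Dispase. There were 5 libraries from the buccal side, which faces the cheek (B1 to B5), and 5 from the palatal side, which faces the palate (P1 to P5). The labels name only the tissue: no strain, genotype, age, treatment, microbial status or number of animals per library is named in them. The design text mentions a contrast of pooled germ-free mice with pooled mice kept specific-pathogen-free. The labels of these libraries name no such groups, and no such contrast was analysed. Whether the libraries are pools, and of which microbial status, could not be worked out. Since nothing says that the libraries came from separate animals, the p-values below measure only the spread between these libraries, which may be technical. The comparison asks how the palatal epithelium differs from the buccal epithelium in the enzymes that build its glycans.

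Mucin-type O-glycans begin when a GALNT enzyme attaches N-acetylgalactosamine (GalNAc) to serine or threonine, and they are then branched by GCNT enzymes and lengthened by the B3GNT and B4GALT enzymes, which add N-acetylglucosamine and galactose in turn. The same extending enzymes act on N-linked chains and on glycolipids. Chains end with caps: fucose from FUT enzymes, the blood group A or B sugar from ABO, or sialic acid from the ST3GAL, ST6GAL and ST8SIA enzymes. At mucosal surfaces such chains coat the keratinocytes and carry blood group antigens, and microbes and lectins bind to them.

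To show the sequence in front of the genes that differed most, promoter windows were read from RefSeq (build GRCm38.p6), where 51 of the 70 genes have an entry. Of the 11 genes that passed the test with at least a 2-fold difference between the sides (below), 7 have an entry. The windows below hold the 250 bases before an annotated start, 5′ to 3′, for Galnt6, the only gene with an entry that rose at least 2-fold, at both of its starts, and for a pair of genes that fell, Gcnt1 (the most upstream of its 3 starts) and St8sia4. Capitals mark the motif named GC box, whose letters are GGGCGG, on either strand. They also mark the motif named TATA box, which is found near many start sites and whose letters are TATAAA, likewise on either strand. No marked match overlaps another in these windows. They lie at chr15:100729377-100729626 and chr15:100720478-100720727 (Galnt6, minus strand), chr19:17372845-17373094 (Gcnt1, minus strand) and chr1:95667595-95667844 (St8sia4, minus strand).
Galnt6, upstream start: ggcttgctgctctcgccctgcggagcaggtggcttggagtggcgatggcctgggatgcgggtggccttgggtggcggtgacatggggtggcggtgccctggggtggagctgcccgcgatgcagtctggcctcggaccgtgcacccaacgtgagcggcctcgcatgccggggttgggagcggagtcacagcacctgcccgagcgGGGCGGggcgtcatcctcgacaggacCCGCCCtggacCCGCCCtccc
Galnt6, downstream start: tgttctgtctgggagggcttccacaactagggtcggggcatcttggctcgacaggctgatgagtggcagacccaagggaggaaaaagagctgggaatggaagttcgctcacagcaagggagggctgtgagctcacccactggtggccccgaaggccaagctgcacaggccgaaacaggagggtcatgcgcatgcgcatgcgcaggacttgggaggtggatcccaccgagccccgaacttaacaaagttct
Gcnt1: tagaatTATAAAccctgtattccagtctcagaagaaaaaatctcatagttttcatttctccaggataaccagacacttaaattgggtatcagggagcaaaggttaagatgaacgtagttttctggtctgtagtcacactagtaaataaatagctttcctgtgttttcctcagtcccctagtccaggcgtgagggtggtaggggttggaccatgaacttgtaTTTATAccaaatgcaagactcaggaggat
St8sia4: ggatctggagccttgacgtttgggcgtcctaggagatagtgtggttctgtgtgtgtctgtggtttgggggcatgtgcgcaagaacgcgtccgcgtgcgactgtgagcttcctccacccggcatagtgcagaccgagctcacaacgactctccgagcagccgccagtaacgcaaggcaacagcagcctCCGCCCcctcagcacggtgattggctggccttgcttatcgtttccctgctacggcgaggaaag

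The upstream Galnt6 window holds 3 GC boxes and 72.8% G and C, and the downstream window holds none of either motif and 59.6% G and C. The Gcnt1 window holds 2 TATA boxes and 40.4% G and C, whereas the windows of its other starts hold neither motif and 55.6% and 51.6% G and C. The St8sia4 window holds 1 GC box and 60.4% G and C. Of the genes that fell and are not printed, the B4galt5 window holds 7 GC boxes and the B3gnt7 window 2, and those of Galnt16 and St6gal1 hold neither motif at any of their 3 starts. Over all 32851 promoter windows of this length, 32.7% hold a GC box and 12.4% a TATA box on either strand. These matches describe the letters only.

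Levels are given as CPM, counts relative to library size, on sizes scaled by the trimmed mean of M-values (TMM). Library totals ran from 25868777 to 37234192 counts. A gene was called higher or lower where palatal differed from buccal at an adjusted p below 0.05 in the quasi-likelihood F-test of edgeR, with adjustment over all 14062 genes tested. Fold changes are log2 values, palatal minus buccal, with their standard error and n = 5 per side. All 10 keratinocyte markers, the defining genes of the labelled tissue, were tested (4 higher, 3 lower) and together held 114569 to 142654 CPM. The first principal component separated all buccal from all palatal libraries and carried 67.4% of the variance. Of 17 leukocyte markers 14 were tested: 13 were lower and 1, Itgam, was higher in palatal libraries. The leukocyte markers summed to 167 to 279 CPM in buccal and 64.3 to 83.2 CPM in palatal libraries, and none of them was at 0 throughout. Of 8 fibroblast markers 5 were tested and 2 rose, with Dcn, the gene of the matrix protein decorin, from 6.61 ± 1.90 to 73.3 ± 6.40 CPM (SD). The fibroblast sum was 6.98 to 13.2 CPM in buccal and 72.4 to 91.4 CPM in palatal libraries. Of 8 salivary or mucous gland markers 1 was tested, Muc5b, which was not called (edgeR adjusted p = 0.0541). The gland sum overlapped between the sides (0.160 to 9.88 and 2.91 to 60.6 CPM), with Smr3a and Prol1 at 0 in every library. Of the other marker lists, simple epithelium had 4 higher and 1 lower of 5 tested genes, Merkel cell and nerve 2 higher and 1 lower of 4, skeletal muscle 2 lower of 4, endothelial cell 1 lower of 2, and Schwann cell and melanocyte 1 tested gene that was not called. In bulk libraries, fewer cells of a type and less RNA per cell cannot be told apart.

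Of the 70 genes, 48 passed the filter on low counts and were tested. Palatal and buccal epithelium differed in 23 of them (47.9%; 38.9% of all tested genes), 10 higher (20.8%, against 18.7% of all) and 13 lower in palatal (27.1%, against 20.3%). The median log2 fold change of the 48 was -0.05, and that of all tested genes 0.01. In 19 genes (39.6%) the sides did not overlap, against 28.3% of all tested genes. In 8 of these all palatal libraries lay above all buccal libraries (13.6% of all tested genes), and in 11 below (14.7%). Calls with at least a 2-fold difference numbered 11 (22.9%; 10.2% of all). Of these, 2 were higher (4.33% of all tested genes were), Fut9 and Galnt6, and 9 were lower (5.85% of all): Abo, Galnt16, Gcnt1, B4galnt1, St6gal1, B4galt6, B4galt5, St8sia4 and B3gnt7. All 11 separated the sides without overlap. Of the 48, 41 passed the filter's level of 0.334 CPM in all 10 libraries. Another 6 passed it in all 5 buccal but fewer palatal libraries (Abo, B3gnt7, B3gnt9, B4galt5, Galnt16 and St8sia4), Galnt16 in 0 palatal libraries. Fut9 passed it in all 5 palatal but only 1 buccal library. Of these 7 genes all but B3gnt9 were called. Passing mainly through the higher side favours genes that differ, so these counts are a description.

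**Figure D1:**
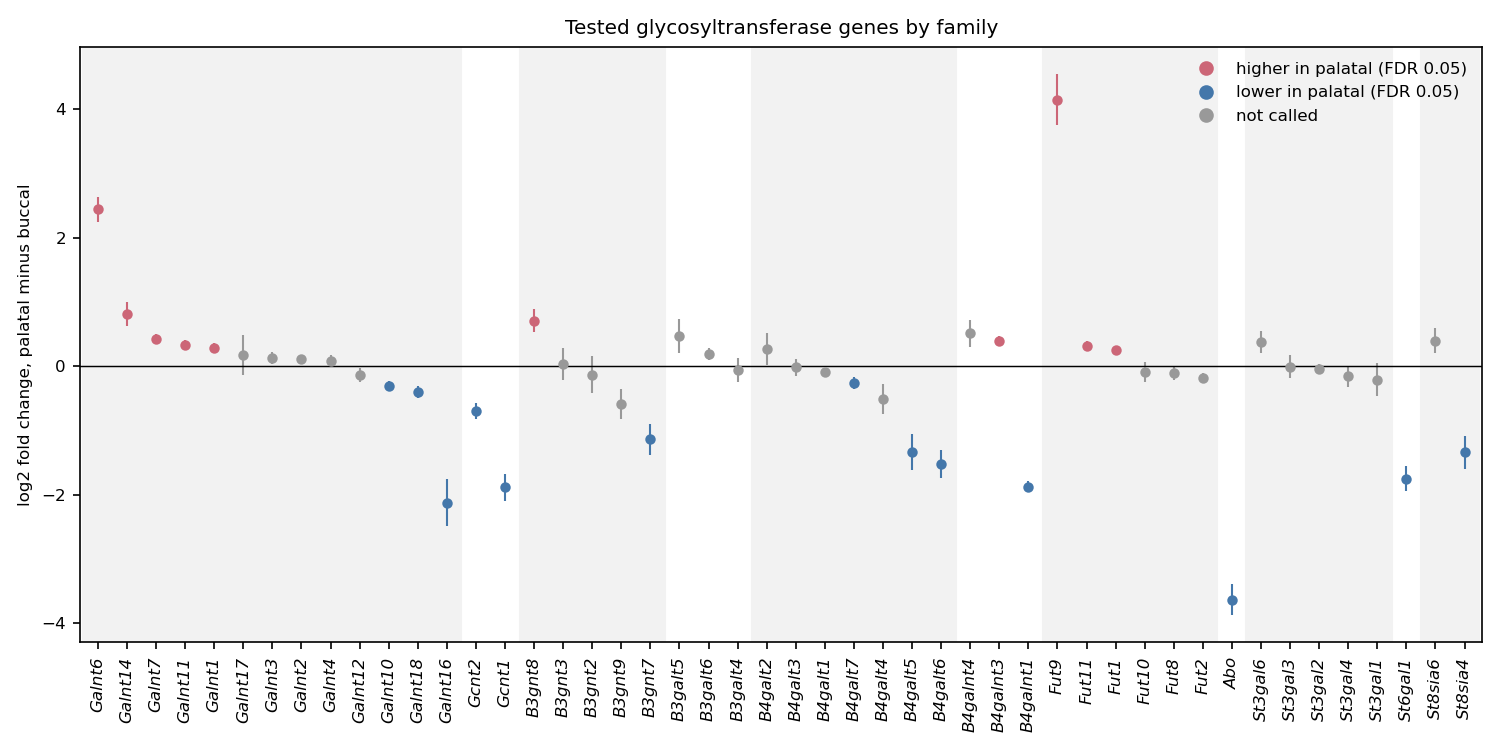
Each point is the log2 fold change (palatal minus buccal) of a tested glycosyltransferase gene, with bars for the standard error, ordered within families on the x axis; red points were higher, blue points lower and grey points not called at a false discovery rate of 0.05 (n = 5 libraries per side). Fut9 and Galnt6 stand above 2, Abo lies lowest at -3.64, and the St3gal and B3galt genes are all grey.

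**Figure D2:**
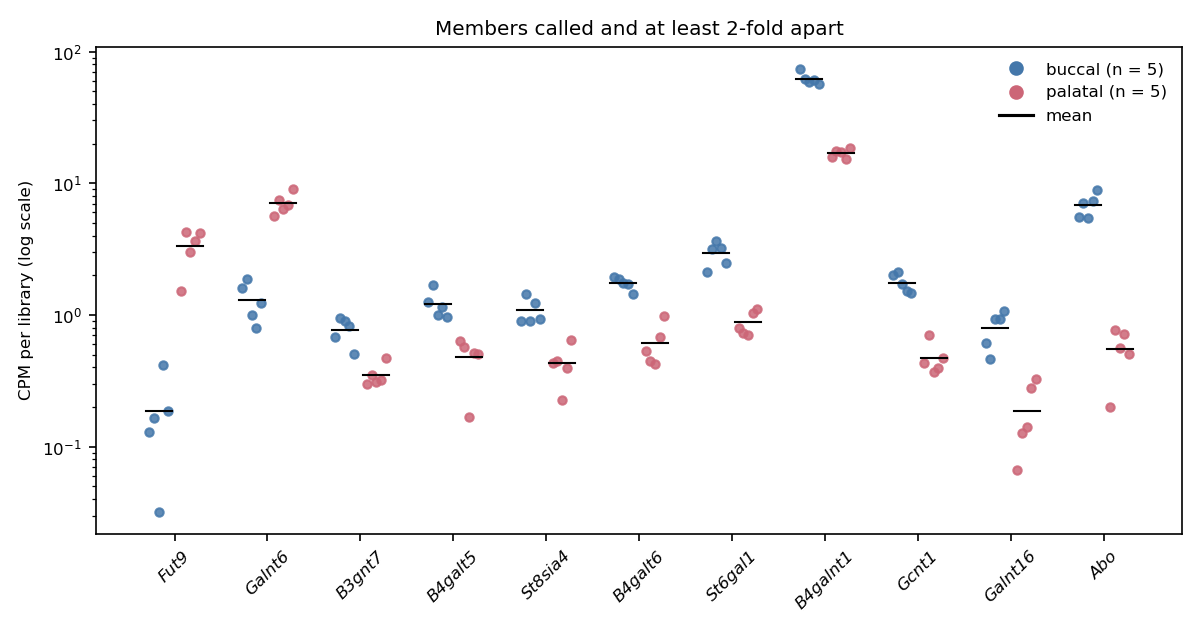
CPM in each library on a log scale for the 11 genes called with at least a 2-fold difference, buccal in blue and palatal in red (n = 5 each), with black lines at the means. No gene's blue and red points overlap in height, and B4galnt1 is the only gene above 10 CPM.

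The large differences sat mostly in genes with few counts. Of the 11 genes at least 2-fold apart, 10 had means below 10 CPM on both sides. Most tested genes were also below that level, since only 17 of the 48 had a mean of at least 10 CPM on some side. Genes with few counts need a larger difference to be called. The share by level was not worked out over all tested genes, so this is a description. The other 12 called genes differed by less than 2-fold, 8 higher and 4 lower. The exception was B4galnt1, described below with its family.

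Galnt genes, whose enzymes place the first GalNAc of mucin-type chains, moved in both directions. Of 17 genes 13 were tested, 5 rose, 3 fell and 5 were not called, and the Galnt sum went from 238 ± 6.20 to 261 ± 9.30 CPM (SD), with every palatal library above every buccal library. Galnt6 showed the largest change of the family. It stood at 1.61, 1.87, 0.999, 0.795 and 1.23 CPM in B1 to B5 and at 5.63, 7.40, 6.43, 6.89 and 9.09 CPM in P1 to P5. The lowest palatal library was thus well above the highest buccal library, and the log2 fold change was 2.44 ± 0.20 (edgeR adjusted p = 2.40e-07). An antisense gene, Galnt6os, overlaps 11.4% of the Galnt6 exon length in the GRCm38 annotation and was nearly without counts.

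Galnt1 rose by a small margin. Its values were 55.3, 68.1, 60.8, 59.9 and 57.0 CPM in buccal and 67.6, 76.3, 70.3, 80.5 and 72.5 CPM in palatal libraries. P1 fell just below B2, so the sides overlapped, with a log2 fold change of 0.29 ± 0.07 (edgeR adjusted p = 0.0049). Galnt7, whose enzyme prefers peptides that already carry GalNAc, rose from 25.4 to 30.6 CPM over the buccal libraries to 34.5 to 40.3 CPM over the palatal libraries (0.43 ± 0.07, edgeR adjusted p = 2.00e-04). Galnt11 and Galnt14 rose by 0.34 ± 0.08 and 0.81 ± 0.19, Galnt14 from a mean of only 0.661 CPM. Galnt18 went the other way, from 31.1 to 43.1 CPM in buccal to 24.1 to 30.1 CPM in palatal libraries (-0.40 ± 0.09, edgeR adjusted p = 0.00253), without overlap. Galnt10 fell by 0.30 ± 0.08 with overlapping sides. Galnt16 fell from a mean of 0.801 to 0.188 CPM (-2.12 ± 0.36, edgeR adjusted p = 2.83e-04), below 1 CPM on both sides. It passed the filter on low counts through the buccal libraries alone, which favours genes that differ. The 5 uncalled genes, Galnt2, Galnt3, Galnt4, Galnt12 and Galnt17, had log2 fold changes from -0.14 to 0.18. In GRCm38, Gm20388 overlaps 90% of the Galnt2 exon length on the same strand. No gene of that name has a count here, so whether it affected the level of Galnt2 is uncertain. Galnt5, Galnt9, Galnt13 and Galnt15 were untested, with at most 13 counts over a side.

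Both tested branching genes fell. Gcnt2, whose enzyme makes the I-antigen branches of poly-N-acetyllactosamine chains, stood at 24.2, 24.1, 29.6, 23.5 and 23.2 CPM in B1 to B5 and at 13.2, 12.3, 17.9, 13.7 and 19.7 CPM in P1 to P5. B3 was the highest library and P5 the closest palatal library to the buccal range, with no overlap (-0.70 ± 0.12, edgeR adjusted p = 4.39e-04). Gcnt1, whose enzyme makes the core 2 branch of O-glycans, stood at 2.00, 2.13, 1.71, 1.52 and 1.46 CPM in buccal and 0.431, 0.702, 0.367, 0.398 and 0.469 CPM in palatal libraries. The highest palatal library was below the lowest buccal library, and the log2 fold change was -1.89 ± 0.21 (edgeR adjusted p = 5.67e-06). The Gcnt sum, 93.3% Gcnt2 in buccal libraries, was 26.7 ± 2.65 and 15.9 ± 3.24 CPM (SD), a palatal to buccal ratio of 0.595. Gcnt3, Gcnt4 and Gcnt7 were untested, with at most 5 counts over a side.

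Chain-extending B3gnt genes had few counts in this epithelium. Of 8 genes 5 were tested, and 4 of the 5 had means below 1 CPM on both sides. B3gnt8, whose enzyme extends chains on N-glycans, held 50.1% of the family's summed CPM in buccal and 66.9% in palatal libraries. Its values were 4.60, 2.79, 2.26, 3.66 and 3.46 CPM in buccal and 6.66, 6.0, 5.70, 4.86 and 4.15 CPM in palatal libraries. P5 lay below B1, so the sides overlapped, and the log2 fold change was 0.71 ± 0.18 (edgeR adjusted p = 0.00511). Bckdha overlaps 18.1% of B3gnt8's exon length on the opposite strand, stood at 22.8 and 23.6 CPM and was not called, and whether the counting used strand is not stated. B3gnt7 fell from 0.506 to 0.952 CPM over the buccal libraries to 0.298 to 0.469 CPM over the palatal libraries (-1.13 ± 0.24, edgeR adjusted p = 0.00172). B3gnt9, B3gnt2 and B3gnt3 were not called (log2 fold changes -0.59, -0.13 and 0.03). B3gnt9 had an edgeR adjusted p of 0.0553, which became 0.0426 without B5 and ranged from 0.0426 to 1.0 over all alternatives. For B3gnt2 a same-strand gene of GRCm38, Gm28048, overlaps 58.6% of the exon length, but no gene of that name has a count here. B3gnt4, B3gnt5 and B3gnt6 were untested, with at most 32 counts over a side. The B3gnt sum overlapped between the sides, at 6.69 ± 1.22 and 8.18 ± 1.24 CPM (SD).

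None of the 3 tested B3galt genes was called by edgeR, DESeq2 or limma-voom, and 0 had an unadjusted edgeR p under 0.05. B3galt6, which adds a galactose of the linker that carries glycosaminoglycans, stood at 7.55 ± 0.482 and 8.62 ± 1.02 CPM (SD; log2 fold change 0.19 ± 0.09, edgeR adjusted p = 0.132). B3galt4, which makes the ganglioside GM1, stood at 3.06 ± 0.464 and 2.91 ± 0.905 CPM (-0.06 ± 0.19), and B3galt5, which makes type 1 chains, at 0.511 and 0.705 CPM (0.47 ± 0.26). B3galt1, B3galt2 and B3galt9 were untested, with at most 17 counts over a side.

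All 7 B4galt genes were tested, 3 fell and 4 were not called. B4galt1, the main galactosyltransferase for N-acetylglucosamine ends, held 65.0% of the family's summed CPM in buccal libraries and was not called, at 45.3 ± 4.48 and 42.5 ± 1.76 CPM (SD; -0.09 ± 0.07, edgeR adjusted p = 0.344). The pair that synthesises lactosylceramide, the root of most glycosphingolipids, fell together from low levels. B4galt6 stood at 1.93, 1.87, 1.74, 1.73 and 1.44 CPM in B1 to B5 and 0.530, 0.447, 0.423, 0.677 and 0.974 CPM in P1 to P5. B4galt5 stood at 1.25, 1.68, 0.999, 1.14 and 0.959 CPM in buccal and 0.629, 0.574, 0.169, 0.518 and 0.505 CPM in palatal libraries. In both genes the palatal libraries were all below the buccal libraries, and P3 was the lowest library. Their log2 fold changes were -1.52 ± 0.22 (edgeR adjusted p = 6.78e-05) and -1.34 ± 0.28 (edgeR adjusted p = 0.00157). B4galt7, another enzyme of the glycosaminoglycan linker, passed narrowly and with overlapping sides, from 8.88 ± 0.853 to 7.41 ± 0.593 CPM (SD; -0.26 ± 0.09, edgeR adjusted p = 0.0347). Without a low-count filter its edgeR adjusted p was 0.0926 (0.0132 to 1.0 over all alternatives, including the test against a fold of 1.5). Its call was also lost when B1, B4, B5, P1, P3 or P5 was left out. B4galt4 stood at 1.33 ± 0.357 and 0.925 ± 0.232 CPM (SD; -0.51 ± 0.23, edgeR adjusted p = 0.0941) and was called lower without B1 (edgeR adjusted p = 0.0394). Its edgeR adjusted p was 0.112 without a filter, and 0.0394 to 1.0 over all alternatives, including the test against a fold of 1.5. B4galt2 and B4galt3 had log2 fold changes of 0.27 and -0.02.

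B4galnt genes changed in opposite directions and traded places within the family. B4galnt1, whose enzyme adds GalNAc to gangliosides to make GM2 and GD2, stood at 73.5, 62.0, 58.4, 60.3 and 56.4 CPM in B1 to B5. In P1 to P5 it stood at 15.9, 17.7, 17.2, 15.3 and 18.6 CPM. The highest palatal library held less than the lowest buccal library, and the gene was 3.67-fold lower in palatal (log2 fold change -1.87 ± 0.08, edgeR adjusted p = 4.64e-10). B4galnt3, whose enzyme adds GalNAc to N-acetylglucosamine to form LacdiNAc ends, stood at 29.9, 28.0, 33.0, 26.9 and 35.8 CPM in buccal and 36.7, 40.2, 41.6, 39.0 and 44.5 CPM in palatal libraries. B5 came just below P1, so the sides were separate by a small gap (0.39 ± 0.08, edgeR adjusted p = 0.0017). B4galnt1 held 60.6% to 70.2% of the family's counts in buccal and 27.6% to 29.7% in palatal libraries. B4galnt4, the other LacdiNAc enzyme, was near 1 CPM and not called (0.51 ± 0.21, edgeR adjusted p = 0.0696), but was called higher without B1 or without P4 (edgeR adjusted p = 0.0258 and 0.0236, 0.0236 to 1.0 over all alternatives). B4galnt2 was untested with 11 counts in all. The family sum was 93.9 ± 6.39 and 58.8 ± 4.23 CPM (SD), a ratio of 0.626 without overlap. Slc26a10 overlaps 20.7% of B4galnt1's exon length on the opposite strand and had 0.182 and 0.0979 CPM.

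**Figure D3:**
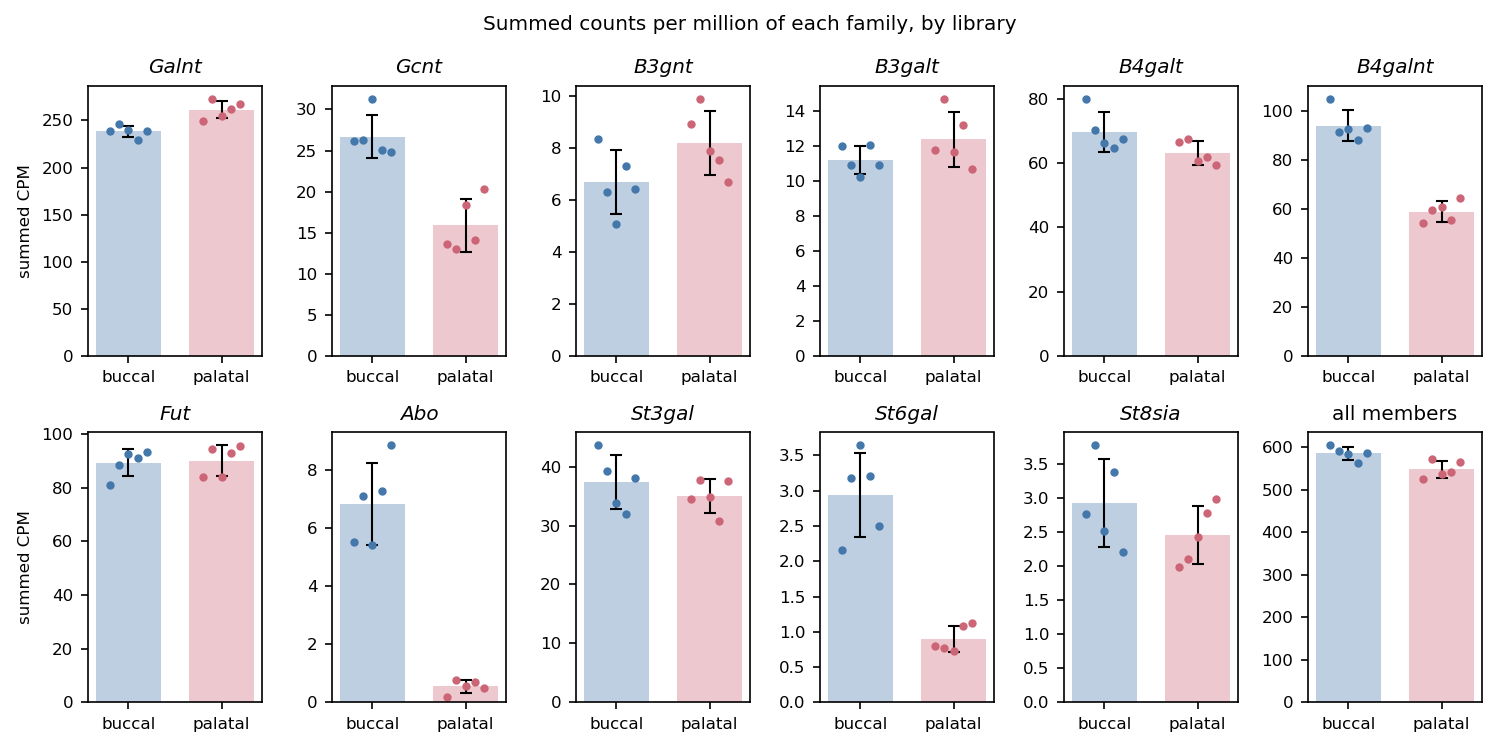
Summed CPM of each family in each library (points), with bars at the mean and error bars for the SD (n = 5 per side), all axes starting at 0. Palatal libraries were all below buccal libraries for Gcnt, B4galnt, Abo and St6gal, all above for Galnt, and overlapped for the other families and for the sum over all 70 genes.

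Summed over all 70 genes, the level was 586 ± 15.3 CPM in buccal and 549 ± 20.1 CPM in palatal libraries (SD), a ratio of 0.937 with overlapping sides. The sums of B3galt, B3gnt, B4galt, Fut, St3gal and St8sia genes also overlapped, with ratios of 1.11, 1.22, 0.907, 1.01, 0.939 and 0.840. Sums weight genes by their level and have no test.

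Fucosyltransferase genes included the largest rise of the 48 tested genes. Fut9, whose enzyme makes the Lewis X structure, stood at 0.129, 0.164, 0.0322, 0.415 and 0.186 CPM in B1 to B5 and at 1.52, 4.28, 2.99, 3.62 and 4.22 CPM in P1 to P5. P1 was the lowest palatal library and was still above all buccal libraries, of which B3 was nearly without counts (log2 fold change 4.15 ± 0.40, edgeR adjusted p = 1.69e-06). Fut1, which makes the H antigen on which ABO acts, rose slightly, from 16.4 to 17.0 CPM over the buccal libraries to 18.2 to 21.6 CPM over the palatal libraries (0.25 ± 0.07, edgeR adjusted p = 0.00864). Fut2, the secretor gene, which also makes the H antigen, was not called, at 56.7 ± 5.62 and 50.2 ± 2.96 CPM (SD; -0.18 ± 0.08, edgeR adjusted p = 0.0787). It was called lower without B1 (edgeR adjusted p = 0.0149) and with library totals in place of TMM scaling (0.0166). Its edgeR adjusted p was 0.138 without a filter, and 0.0149 to 1.0 over all alternatives, including the test against a fold of 1.5. Fut11 rose from 7.76 ± 0.388 to 9.65 ± 0.715 CPM (0.32 ± 0.08, edgeR adjusted p = 0.00615). Fut8, which adds the core fucose of N-glycans, and Fut10 were not called (-0.10 and -0.09). Of 8 Fut genes 6 were tested, of which 3 were higher and 3 not called.

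Fut7 and Fut4, enzymes that make selectin ligands and Lewis X in leukocytes, were too low for the main test. Fut7 had 37 counts over the buccal libraries, 5 to 9 in each, and 3 over the palatal libraries, 0 or 1 in each. The buccal to palatal ratio was 11.6 (95% interval 3.68 to 58.9, exact, for counting error only), and an edgeR fit without a low-count filter gave an adjusted p of 6.77e-05. Fut4 had 48 and 19 counts with overlapping libraries (edgeR adjusted p = 0.0714 without the filter).

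Abo, whose enzyme caps the H antigen with the blood group A or B sugar, had the largest fall. It stood at 5.53, 7.13, 5.41, 7.29 and 8.87 CPM in B1 to B5 and at 0.199, 0.766, 0.564, 0.717 and 0.505 CPM in P1 to P5. Every palatal library was below 1 CPM and every buccal library above 5 CPM, a 12.4-fold difference (log2 fold change -3.64 ± 0.24, edgeR adjusted p = 2.75e-08). The genes of its acceptor, Fut1 and Fut2, differed by 1.19-fold and 1.13-fold, in opposite directions. Fut1 was called, and Fut2 was not unless B1 was left out or library totals were used.

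Of the sialic acid caps, no St3gal gene was called with all libraries. Of 6 genes 5 were tested and none was called by edgeR, DESeq2 or limma-voom. Their log2 fold changes ran from -0.21 to 0.38 and their edgeR adjusted p from 0.0867 to 0.981, with 1 unadjusted p under 0.05, that of St3gal6. St3gal2 stood at 18.6 ± 1.81 and 18.1 ± 1.31 CPM (SD; -0.04 ± 0.08). St3gal4 and St3gal1 stood at 8.65 ± 1.48 and 7.24 ± 2.57 CPM in buccal and at 7.77 ± 1.84 and 6.27 ± 1.5 CPM in palatal libraries (-0.16 ± 0.16 and -0.21 ± 0.26). St3gal6 stood at 1.09 and 1.41 CPM, and Dcbld2, which overlaps 26.0% of its exon length on the opposite strand, was lower in palatal (edgeR adjusted p = 0.00883). St3gal5, which makes the ganglioside GM3, was untested with 68 and 35 counts. Without B1 or without B4 it passed the filter and was called lower (log2 fold changes -0.97 and -0.96, edgeR adjusted p = 0.0334 and 0.041). Without P1, P2, P3 or P4 it also passed the filter but was not called. Nor was it called by DESeq2, or by edgeR without a filter (edgeR adjusted p = 0.103).

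St6gal1, whose enzyme puts sialic acid on galactose at the ends of N-glycans, fell. It stood at 2.12, 3.19, 3.64, 3.21 and 2.50 CPM in B1 to B5 and at 0.795, 0.734, 0.705, 1.04 and 1.12 CPM in P1 to P5. The highest palatal library held less than the lowest buccal library (-1.75 ± 0.19, edgeR adjusted p = 4.75e-06). St6gal2 was untested, with 4 counts in all.

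St8sia genes, which add sialic acid to sialic acid, were at low levels. St8sia4, a polysialic acid synthase, stood at 0.901, 1.45, 0.902, 1.24 and 0.932 CPM in buccal and 0.431, 0.447, 0.226, 0.398 and 0.650 CPM in palatal libraries. P5 was the palatal library closest to the buccal range, without overlap (-1.34 ± 0.26, edgeR adjusted p = 7.85e-04). St8sia6 was not called, at 1.34 ± 0.315 and 1.76 ± 0.342 CPM (SD; 0.40 ± 0.20, edgeR adjusted p = 0.129). St8sia1, which makes the ganglioside GD3, was untested with 76 and 24 counts, 9 to 19 in each buccal and 3 to 7 in each palatal library. Its buccal to palatal ratio was 2.98 (95% interval 1.86 to 4.94, exact, for counting error only), and without the filter its edgeR adjusted p was 0.00105. St8sia2, St8sia3 and St8sia5 had at most 12 counts over a side.

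Several of the falling genes are also known in leukocytes. Of the 14 tested leukocyte markers 13 were lower in palatal libraries, while Itgam rose by 2.70 ± 0.18 log2 units. St6gal1, Gcnt1 and St8sia4 fell by 1.75, 1.89 and 1.34 log2 units, and Ptprc, the pan-leukocyte gene, by 1.64 ± 0.15 and Cd207, the Langerhans cell gene, by 2.11 ± 0.15. The leukocyte sum given above did not overlap between the sides. The part of leukocytes in these falls was not tested. Markers of several cell types rose in the same libraries as Galnt6 and Fut9. In the fibroblast sum, Dcn alone made up 73.3 of a mean of 79.3 CPM in palatal libraries. Fbn1 was also higher, whereas Col1a1, Col1a2 and Col3a1 were not called, with Col1a1 at 1.87 and 1.48 CPM. Of the simple epithelium markers Krt8, Krt18, Krt7 and Krt19 rose and Epcam fell. Of the Merkel cell and nerve markers Piezo2 and Atoh1 rose and Sox2 fell. The part of other cell types in these rises was not tested either.

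**Figure D4:**
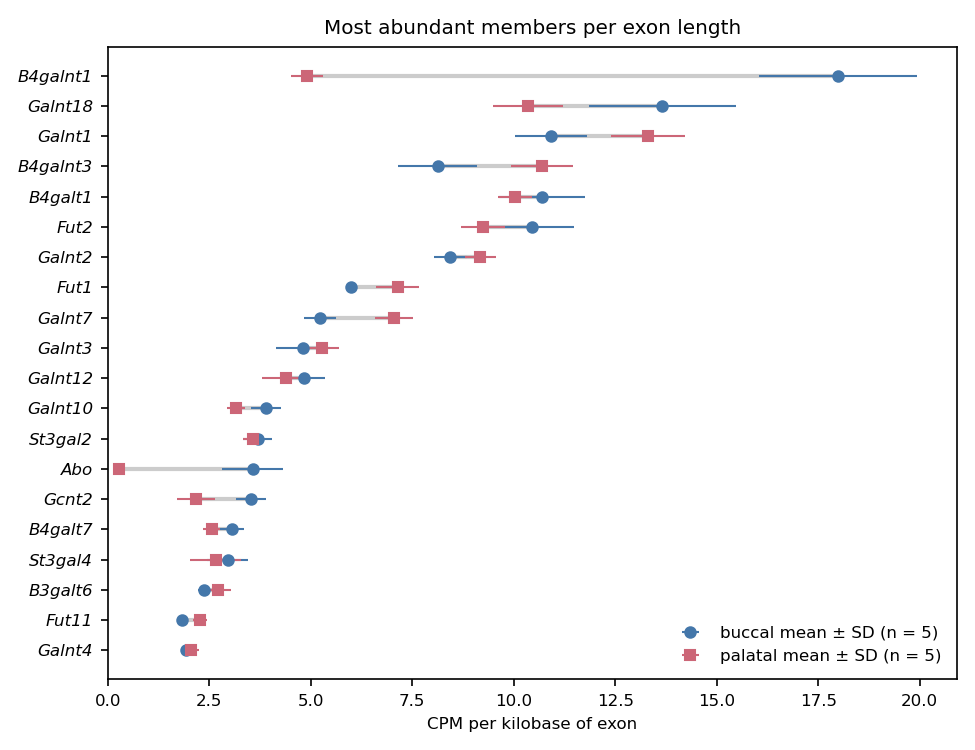
Mean CPM per kilobase of exon, with bars for the SD (n = 5 per side), for the 20 genes with the highest level per length on either side, buccal as blue circles and palatal as red squares. B4galnt1 leads in buccal libraries at 18.0 and drops to 4.90 in palatal libraries, and Abo drops from 3.57 to 0.287.

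Levels of different genes were compared per kilobase of exon, from the GENCODE annotation of GRCm38, a build other than the authors'. In buccal libraries B4galnt1 came first at 18.0 ± 1.94 CPM per kilobase (SD) and Galnt18 next at 13.7 ± 1.81. Galnt1, B4galt1 and Fut2 followed at 10.9 ± 0.893, 10.7 ± 1.06 and 10.4 ± 1.03, which did not differ beyond their spread. In palatal libraries Galnt1 came first at 13.3 ± 0.920, followed by B4galnt3, Galnt18 and B4galt1 at 10.7 ± 0.764, 10.3 ± 0.862 and 10.0 ± 0.416, again within their spread. B4galnt1 ranked 10 in palatal libraries, at 4.90 ± 0.389. Abo went from rank 14 in buccal to rank 32 in palatal libraries, from 3.57 ± 0.742 to 0.287 ± 0.116.

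Of the 22 untested genes, 10 had at most 10 counts over all libraries. An edgeR fit without a filter called 3 of the 22: Fut7 and St8sia1 lower, and B3gnt4 higher with 10 and 32 counts (adjusted p = 0.0174). Diablo overlaps 93.2% of B3gnt4's exon length on the opposite strand, at 3.09 and 3.58 CPM, so B3gnt4's counts are uncertain.

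Other genes of glycan synthesis were read from lists, whose counts stand against 38.9% of all tested genes called, 18.7% higher and 20.3% lower. Of 7 tested enzymes that build O-glycan cores or put sialic acid on GalNAc, 4 rose (57.1%) and 3 were not called (median 0.51, against 0.01 over all tested genes). St6galnac1, which caps the first GalNAc with sialic acid, rose from 2.30 ± 0.435 to 23.5 ± 2.33 CPM (SD; 3.35 ± 0.12, edgeR adjusted p = 5.78e-11). C1galt1, the core 1 synthase, rose from 62.1 ± 6.45 to 88.2 ± 6.38 CPM (0.51 ± 0.08, edgeR adjusted p = 1.24e-04). St6galnac6 and 1 of the 2 identifiers named St6galnac2 rose by 0.63 and 0.72, both near 1 CPM. C1galt1c1, the chaperone of the core 1 synthase, was not called (0.01 ± 0.08).

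Genes that supply the donor sugars were called about as often as all tested genes (37.5% against 38.9%). Of 24 tested, 8 fell (33.3%, against 20.3% of all) and 1 rose (4.17%, against 18.7%), with a median of -0.08, and the list summed to 437 to 455 CPM in buccal and 371 to 378 CPM in palatal libraries. Cmas, which activates sialic acid, fell from 76.7 ± 8.88 to 42.7 ± 4.46 CPM (SD; -0.84 ± 0.09, edgeR adjusted p = 3.65e-06). Nans, which makes sialic acid, fell by 0.46 ± 0.07 log2 units and Gfpt1, the entry enzyme of hexosamine synthesis, by 0.51 ± 0.10. Of 15 tested N-glycan branching and trimming genes, 6 fell and 1 rose (46.7% called, median -0.18). Mgat5, which starts the branch that carries long chains, rose by 0.43 ± 0.07, while Man1c1, Mgat5b and Mgat4a fell by 1.56 ± 0.20, 0.92 ± 0.24 and 0.48 ± 0.10.

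**Figure D5:**
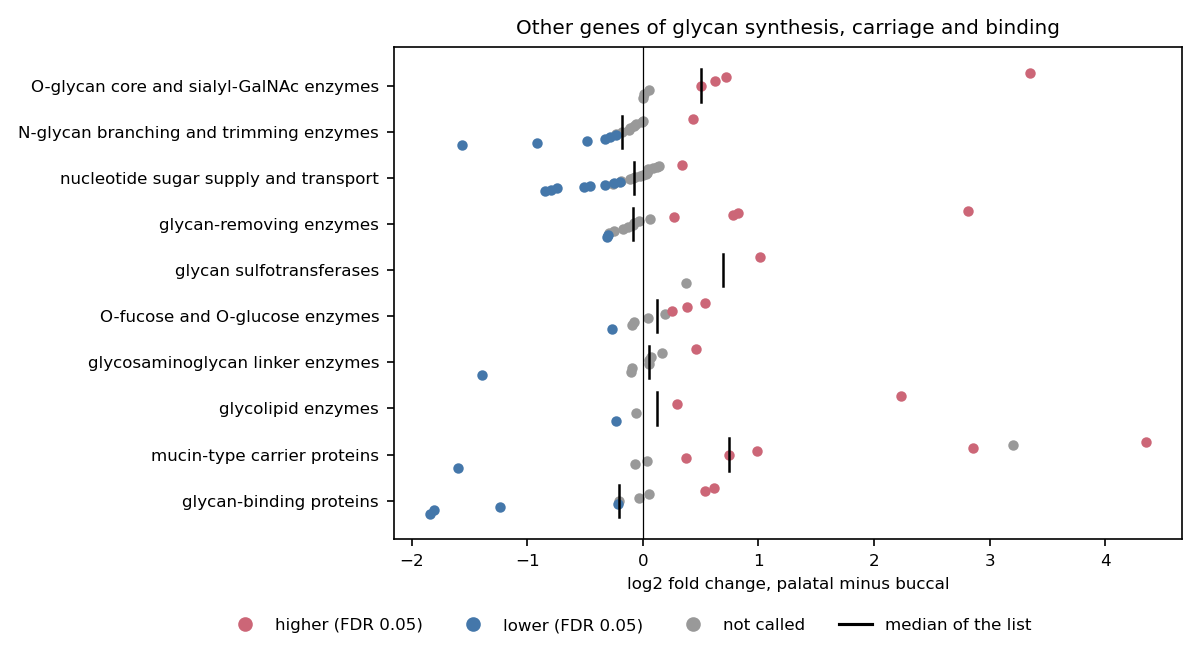
Log2 fold change (palatal minus buccal) of each tested gene in 10 lists of glycan genes, red for higher, blue for lower and grey for not called at a false discovery rate of 0.05, with black bars at list medians and small vertical offsets for legibility. St6galnac1 stands at 3.35 in the O-glycan core list, and the called genes of the donor sugar list lie on the left apart from 1.

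Among the 14 tested enzymes that remove sugars, 4 rose and 2 fell (42.9%, near the 38.9% of all tested genes). The sialidase genes Neu2 and Neu3 rose by 2.82 ± 0.19 and 0.78 ± 0.13 and Glb1l2 by 0.82 ± 0.15, while Fuca2, a fucosidase gene, fell by 0.30 ± 0.06. Of 9 tested carriers of mucin-type chains, 5 rose and 1 fell (66.7% called, median 0.75). Cd24a rose from 809.7 ± 71.0 to 1358 ± 86.1 CPM (SD; 0.75 ± 0.08, edgeR adjusted p = 3.94e-06), Cd44 by 0.38 ± 0.08 and Muc1 by 0.99 ± 0.22, while Spn, the leukocyte sialophorin gene, fell by 1.60 ± 0.15. Of 9 tested glycan-binding genes, 2 rose and 4 fell (66.7% called, median -0.21). Lgals9, a galectin gene, fell from 51.7 ± 13.4 to 14.4 ± 3.96 CPM (SD; -1.85 ± 0.24, edgeR adjusted p = 1.27e-04), and Selplg, the carrier of selectin ligands on leukocytes, by 1.80 ± 0.14.

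The smaller lists were mixed. Of 4 tested glycolipid genes 2 rose and 1 fell, with A4galt, the globotriaosylceramide synthase, up by 2.23 ± 0.27 from 0.544 ± 0.277 CPM. Of 8 glycosaminoglycan linker genes (25% called) 1 rose, Xylt1 by 0.46 ± 0.15, and 1 fell, Csgalnact1 by 1.39 ± 0.28. Of 8 O-fucose and O-glucose genes 3 rose and 1 fell (50% called), with B3glct up by 0.54 ± 0.10. Of 2 tested sulfotransferase genes 1 rose, Gal3st1, by 1.02 ± 0.13.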

How the data were processed

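RNA with a poly(A) tail from 5 buccal and 5 palatal gingival epithelium libraries, grouped by tissue label, was read from a deposited table. Per the file headers it holds the authors' raw counts per gene and library, and normalized values of the authors, a signal that was checked to be each count over a size factor of its library and was not used in the tests. cutadapt 2.10, TopHat2 2.1.1, HTSeq 2.01, DESeq2 1.36.0 and GRCm39 are named in the submitters' processing notes, whose roles are not recorded there. How reads were assigned to genes and whether strand was used is not given in the sources used here. Libraries were made with a stranded kit and read from a single end, per the labels' protocols.

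The table has 55414 genes, 6250 of them blank throughout and set aside, and 0 columns of other samples. Low genes were dropped with filterByExpr (minimum count 10), TMM scaling was applied, and palatal was set against buccal in edgeR's robust quasi-likelihood fit (two-sided F-test, Benjamini-Hochberg over 14062 genes, threshold 0.05). Versions were edgeR 4.0.16, limma 3.58.1, DESeq2 1.42.0 and R 4.3.3. Standard errors were taken as the log2 fold change over the root of its F value. The edgeR test was checked on simulated counts in which only genes with a mean of at least 1 CPM were made to differ. That check does not cover calls of genes below this level. Totals ran from 25868777 to 37234192 counts, and on TMM-scaled sizes 1 CPM is 25.1 to 37.6 counts, which limits the precision of genes below that level. Exon lengths and overlaps came from the GENCODE annotation of GRCm38, and no coordinates of the authors' build are given.

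The members and gene lists were chosen with earlier results of these data known, so no p is adjusted over them alone. The naming rule gave full statistics to Abo, to every member called with a log2 fold change of at least 1 in size, and to up to 4 tested members per family with the smallest p. Of each pathway list it named up to 4 called genes with the smallest p. A gene that this rule named is not reported here. Members outside this rule were named by their calls after their values were seen, as were C1galt1c1, the marker genes and the untested members.

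Alternatives changed the scaling (RLE, upper quartile, or library totals alone), the filter (none, or at least 1 CPM in 5 libraries) and the test (DESeq2, limma-voom, a replicate block, a false discovery rate of 0.01, or a tested fold of 1.5). The test against a fold of 1.5 asks whether a difference exceeds that fold, so its p is not set against the same null as the others. Each library was also left out in turn, and number 2 on both sides. Replicates of a side all differed by more than sampling noise.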

Additional observations from a re-analysis of the deposited data

Results flagged for a closer look

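In groups of 5 libraries, a library was picked out where its gap to the nearest other library exceeded 0.71 of the group's range. Of 94 groups tested 5 were picked out, and chance gives about 1 in 20. Gcnt2 stood at 29.58 CPM in B3, with 24.2 CPM in the next buccal library, and the Gcnt sum at 31.29 CPM in B3, with 26.2 CPM in the next. St3gal2 stood at 21.75 CPM in B1, with 18.4 CPM in the next buccal library. B3gnt2 stood at 1.276 CPM in P2, with 0.705 CPM in the next palatal library, and B4galt5 at 0.1693 CPM in P3, with 0.505 CPM in the next lowest. Without B3 Gcnt2 remained lower in palatal and without P3 B4galt5 did, both past the threshold.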

How the results depend on the processing

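Of the 23 called genes, 22 kept their call under every alternative that tested them, other than a false discovery rate of 0.01 and a tested fold of 1.5, and 0 reversed under any of the 21 alternatives. The exception was B4galt7, lost without a filter, under the replicate block and without B1, B4, B5, P1, P3 or P5. Against a fold of 1.5, 11 of the genes were called, 2 of them higher, and over all tested genes 1491, 675 higher and 816 lower. Signs of uncalled genes were followed only for those to which the naming rule gave full statistics. Of these, B3galt4 and St3gal2 reversed sign when a library was left out. B3galt4 ranged from -0.26 to 0.03 (0.00994 without B1, 0.0329 without P4 and 0.0166 without P5), and St3gal2 from -0.0698 to 0.0224, positive only without B1. Other uncalled genes gained a call: B3gnt9 with library totals alone (adjusted p = 0.0441) or without B5, Fut2 with library totals alone (0.0166) or without B1, B4galnt4 without B1 or P4, and B4galt4 under the replicate block (0.0493) or without B1. Untested St3gal5 was tested and called lower without B1 or B4, but not called where it was tested without P1, P2, P3 or P4. Untested St8sia1 was tested and called lower without B3 or any 1 of P1 to P5. DESeq2, like the fit without a filter, called Fut7 and St8sia1 lower and B3gnt4 higher. The labels do not say that shared numbers pair the libraries, and same-numbered deviations correlated at -0.0226 to 0.328, not above 0.1 for every number, though 3 of the 5 buccal libraries correlated best with their own number in palatal. The replicate block called 23 of these genes, 22 of them among those called without it (B4galt4 gained, B4galt7 lost), and 5518 of all genes. Below about 1 CPM, counts limit what can be called.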
